A study of Homo sapiens with 24 samples.

Results

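The genes described here are 40 members of the NF-κB system: 23 secreted chemokines and cytokines, and 17 intracellular or surface members comprising the NF-κB subunits, the proteins that restrain them, adaptors and target genes. They were taken by name from a list chosen with earlier results of these data known. Counts of members beside the share of all genes are therefore descriptions and not a test. Of the 40, 37 had a probe set that the array's annotation assigned to a single gene, of 19775 genes so annotated. These were 22 secreted and 15 intracellular or surface members. BCL3 lay only on probe sets that name 2 genes, and CSF2 and BIRC3 were not analysed here. RNA was measured on 24 arrays from 4 human prostate cancer cell lines: PC3 from a bone metastasis, NCI-H660 with neuroendocrine features, and arrays labelled LNCaP and VCaP. Each line received DMSO vehicle or I-BET762 (GSK525762A) at 0.5 or 10 µM, a small molecule that occupies the acetyl-lysine pockets of the BET bromodomain proteins, for 24 h, with 2 independent samples in each of the 12 groups. All are established lines in culture, and each tumour type is 1 line, so that a line and its type cannot be told apart. In such bulk RNA, fewer cells expressing a gene and less RNA in each cell cannot be told apart. Both doses of a line share its vehicle samples.

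NF-κB is a family of dimeric transcription factors built from the RELA, RELB, REL, NFKB1 and NFKB2 subunits. In resting cells IκB proteins such as NFKBIA hold the dimers in the cytoplasm, and signals from TNF, interleukin-1 or Toll-like receptors destroy the IκB and let the dimers reach κB motifs in the promoters of chemokine, cytokine and adhesion genes. Several of the induced genes are themselves brakes, among them NFKBIA, TNFAIP3 (A20) and TNIP1, so that secreted targets and brakes share one input. Prostate cancer lines without androgen receptor, such as PC3, are known for high interleukin-6 and interleukin-8.

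Values are array signals, scaled by the authors so that the trimmed mean of every array is 500, and a level was compared between arrays for the same gene and never between genes. A group mean under a signal of 100, the floor, was treated as not distinguishable from background. A member was said to have passed the test where limma's adjusted p was under 0.1, the change was over 2-fold and at least 1 group mean reached the floor. The adjustment ran over all 54613 probe sets in a model of all 12 groups. That change was taken from the signals as measured, also those under the floor. The calls of IL32, LIF and NFKB2 below passed although their fold stayed under 2 with the lower mean raised to the floor. Replicates of a group correlated between 0.9338 and 0.9528 over all probe sets, and 44.35% to 50.05% of probe sets on an array were at 100 or over. The leukocyte marker PTPRC (CD45) averaged 52.2 at most in any group, and the endothelial markers CDH5, VWF and KDR reached 42.6, 77.1 and 90.6 at most, all under the floor. Of the 6 measured leukocyte markers CD14, CD3E and ITGAM reached it in some groups, at 100, 187 and 154 at most. The endothelial marker PECAM1, read on 1 of its 5 probe sets, reached it in every group. It fell in PC3 at 10 µM with the members below, from a mean of 612 to 244 (−1.35, limma adjusted p = 0.00458). Its part in their results was not tested. ERG, which VCaP is known to carry as a fusion, had a mean vehicle signal of 6984 where the label was LNCaP and 18.1 where it was VCaP, whereas ETV1, which LNCaP is known to overexpress, had 43.0 and 375. Values of these lines are therefore given as the labels name them, and every direction in them belongs to the arrays carrying that label.

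The promoters that introduce the results are those of CXC chemokines, of the cytokine IL6, and of subunits and brakes that moved differently between lines. RefSeq windows (GRCh38.p14) from 250 bases before to 50 after the annotated start were held for 31 of the 40 members. The letters GGAATTTCC, a known κB sequence, were found on either strand in 11 of these 31 members (CXCL1, CXCL2, CXCL3, CXCL5, CXCL6, CXCL8, NFKB1, REL, NFKBIA, NFKBIZ and ICAM1), against 0.461% of 35116 windows of the same length. The 10-letter κB consensus was found in 19 members and in 11.3% of all windows, and in 9 of the 11 members the shorter sequence lay inside it. TGACTCA, the AP-1 motif, was found in CXCL8, IL11 and IL1A and in 4.95% of windows. The 31 members held 43 windows, and a member counted if any of its windows matched. The shares are of single windows, so that the counts and the shares are not in the same unit. A match is a description of letters and not a measured binding site. Windows of the chemokines CXCL1 (chr4:73869290-73869348, plus strand), CXCL2 (chr4:74099239-74099297, minus strand), CXCL5 (chr4:73998734-73998792, minus strand), CXCL6 (chr4:73836564-73836622, plus strand) and CXCL8 (chr4:73740453-73740511, plus strand) follow 5′ to 3′, with GGAATTTCC in capitals.
CXCL1: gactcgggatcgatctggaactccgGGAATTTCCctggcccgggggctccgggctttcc
CXCL2: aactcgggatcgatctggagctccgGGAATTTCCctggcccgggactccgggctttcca
CXCL5: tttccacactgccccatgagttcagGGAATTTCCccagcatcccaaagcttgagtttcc
CXCL6: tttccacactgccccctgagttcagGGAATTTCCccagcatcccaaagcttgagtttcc
CXCL8: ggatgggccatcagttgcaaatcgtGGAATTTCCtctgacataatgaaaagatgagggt
These windows lie from 116 to 44 bases upstream of the start, and all of the genes are neighbours on chromosome 4. Over 59 bases without gaps CXCL5 and CXCL6 were 98.3% identical and CXCL1 and CXCL3 93.2%, while CXCL8 and CXCL1 shared 40.7%.

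The same letters stood in promoters of subunits and IκB genes. Windows are shown for the subunits NFKB1 (chr4:102501286-102501344, plus strand) and REL (chr2:60881503-60881561, plus strand) and the IκB genes NFKBIA (chr14:35404797-35404855, minus strand) and NFKBIZ (chr3:101827743-101827801, plus strand), with GGAATTTCC or its reverse complement in capitals.
NFKB1: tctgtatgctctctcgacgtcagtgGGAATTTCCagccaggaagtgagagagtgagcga
REL: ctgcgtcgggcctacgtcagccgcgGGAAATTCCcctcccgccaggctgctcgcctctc
NFKBIA: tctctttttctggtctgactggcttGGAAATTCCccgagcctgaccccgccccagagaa
NFKBIZ: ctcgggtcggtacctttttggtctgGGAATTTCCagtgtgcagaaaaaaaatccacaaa
For IL6 (chr7:22727102-22727161, plus strand), TNFAIP3 (chr6:137867167-137867238, plus strand) and TNIP1 (chr5:151081042-151081101, minus strand) the capitals mark the κB consensus on either strand, of which TNFAIP3 held 2 matches.
IL6: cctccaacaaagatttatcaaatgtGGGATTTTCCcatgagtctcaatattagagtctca
TNFAIP3: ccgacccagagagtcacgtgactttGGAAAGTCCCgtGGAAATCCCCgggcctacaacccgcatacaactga
TNIP1: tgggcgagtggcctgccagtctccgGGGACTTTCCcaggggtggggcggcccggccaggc

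**Figure D1:**
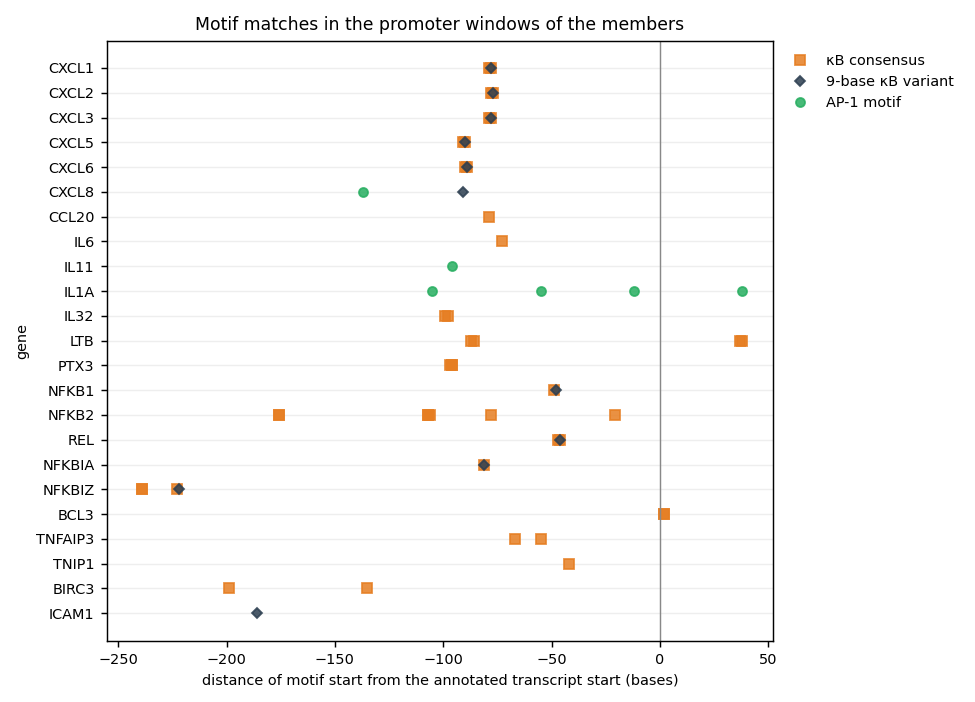
Start of each motif match (squares, κB consensus; diamonds, the 9-base κB sequence; circles, AP-1 motif) in bases from the annotated transcript start, on the x axis, for each member with a match on the y axis. Matches in the 6 CXC chemokines lie within 91 bases upstream for the κB letters, and that of NFKBIZ lies 222 bases upstream.

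In vehicle the secreted factors were mostly a PC3 feature. Of the 22 measured, 17 reached the floor in PC3, 7 on arrays labelled LNCaP, 6 in NCI-H660 and 4 on arrays labelled VCaP. Over both classes 21 members were higher in PC3 than on arrays labelled LNCaP, where 12.6% of all genes were. The corresponding counts were 23 against arrays labelled VCaP, with 11.5% of all genes, and 21 against NCI-H660, with 13.6%. CCL2, the monocyte attractant MCP-1, was lower in PC3 than on arrays labelled LNCaP, with means of 4.20 and 557. CX3CL1 (fractalkine) was lower in PC3 than in NCI-H660, with means of 47.9 and 263. IL1A, TNF and the representative probe set of CXCL2 stayed under the floor in all 12 groups. Another CXCL2 probe set, marked as cross-hybridising, had a mean of 1458 in PC3 vehicle, and the remaining one had 38.2.

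The intracellular members were measured in more of the lines. NFKB1, RELA, REL, NFKBIA, NFKBIE, NFKBIZ, TNFAIP3, TNIP1, BIRC2 and CXCL16, the last of these secreted or membrane-bound, averaged 100 or over in vehicle in every line. TNFAIP3 averaged 2392 in PC3 vehicle, 317 in NCI-H660, 148 on arrays labelled LNCaP and 120 on arrays labelled VCaP. The arrays labelled LNCaP and VCaP did not differ in TNFAIP3 beyond their spread (log2 difference 0.30 ± 0.24, adjusted p = 0.426), and each other step in that order was over 2-fold and passed. NFKBIA, the IκB that each round of signalling destroys and resynthesises, differed less, from 3119 on arrays labelled VCaP to 5687 in PC3, and PC3, arrays labelled LNCaP and NCI-H660 did not differ in it beyond their spread (adjusted p from 0.21 to 0.759).

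**Figure D2:**
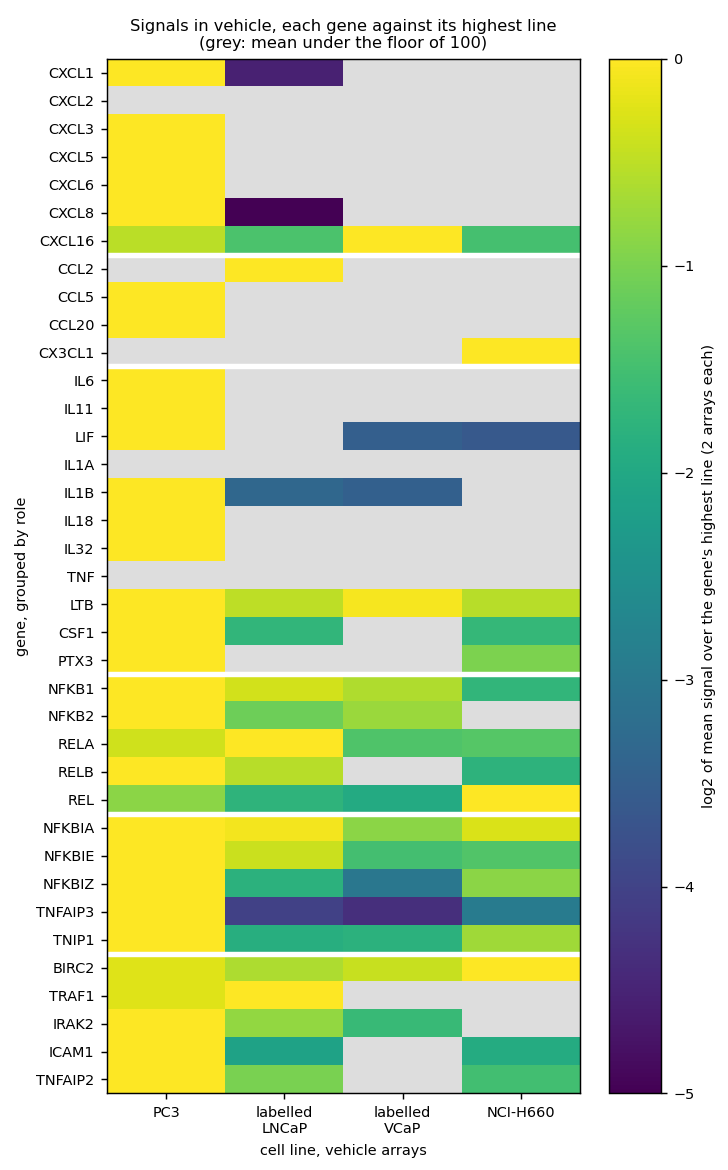
Mean vehicle signal of 2 arrays in each cell line (columns) for the 37 measured members (rows, grouped by role), as log2 of the ratio to the line with the highest signal of that gene, with means under 100 in grey. Rows are read across and not against each other. Of the 22 secreted members 17 are coloured in PC3 and 4 on arrays labelled VCaP.

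In PC3, I-BET762 lowered interleukin-6, interleukin-1β, IL32 and the brakes TNFAIP3 and TNIP1 at both doses, and no member rose past the test. At 0.5 µM 5 of the 37 members fell, against 0.622% of all genes, and 0 rose, against 0.627%. At 10 µM 8 fell, against 2.07%, and 0 rose, against 2.23%, with 14 members at an unadjusted p under 0.05. The median log2 change of the 32 members at the floor was −0.61 at 0.5 µM and −0.74 at 10 µM, where that of all genes at the floor was 0 at both. The 17 secreted members at the floor had a median of −0.66 at 0.5 µM and −1.51 at 10 µM, and the 15 intracellular and surface members −0.34 and −0.24.

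CXCL8 (interleukin-8), the neutrophil attractant, had signals of 12293 and 12983 in the PC3 vehicle samples. It had 2304 and 2965 at 0.5 µM and 2163 and 2301 at 10 µM. Both doses lay far below vehicle with no overlap, and the ranges of the doses nearly met. The log2 change was −2.27 ± 0.77 (SE, n = 2 arrays a group, as for every change below) at 0.5 µM with a limma adjusted p of 0.15, and −2.50 ± 0.77 at 10 µM with an adjusted p of 0.0563. Each such SE uses a spread of the gene pooled over all 12 groups, also those where the gene lay under the floor. It is therefore not the spread of the PC3 arrays alone. In the PC3 model with a spread that follows signal, given below, the SE of CXCL8 was 0.13. The call of CXCL8 at 10 µM was lost when any 1 of its 4 PC3 arrays was left out, with adjusted p from 0.154 to 0.189. With the replicate number as a block its adjusted p was 0.1. A further CXCL8 probe set, marked as cross-hybridising and so not the representative, went from a mean of 22013 in vehicle to 7004 and 6295 and passed at both doses, at −1.65 (adjusted p = 0.0803) and −1.81 (adjusted p = 0.0245), and the mean over both probe sets passed at −1.96 and −2.16. In the other lines the representative reached the floor only in vehicle on arrays labelled LNCaP, at a mean of 121. The further probe set was lower there at 0.5 µM, from 364 to 129 (−1.49, adjusted p = 0.0555), and in NCI-H660, from 209 to 51.9 and 61.3, with adjusted p of 0.047 and 0.023.

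The other CXCR2 ligands went the same way in value without passing that test. CXCL1 had 3594 and 4050 in vehicle, 1203 and 1605 at 0.5 µM and 993 and 1156 at 10 µM. CXCL5 had 4262 and 5189 in vehicle, 1816 and 2247 at 0.5 µM and 952 and 686 at 10 µM. CXCL6 had 2628 and 2393 in vehicle, 528 and 710 at 0.5 µM and 464 and 663 at 10 µM. Vehicle stood above both doses for all of these, and both 10 µM arrays lay below both 0.5 µM arrays for CXCL1 and CXCL5. At 10 µM the log2 changes were −1.83 ± 0.74 for CXCL1, −2.54 ± 1.46 for CXCL5 and −2.18 ± 0.82 for CXCL6, with adjusted p from 0.12 to 0.35. CXCL3 had −0.66 ± 1.18, from a mean of 842 to 531, and the CXCL2 probe set above the floor, marked as cross-hybridising, −0.63, from 1458 to 943. CXCL3 shares long stretches of sequence with CXCL1 and CXCL2, and signals among such near copies are uncertain.

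A model of the PC3 arrays alone with a spread that follows signal, an alternative added after the data were seen, separated these chemokines from vehicle. It called 9 members lower at 0.5 µM, against 0.976% of all genes, and 12 at 10 µM, against 2.76%. CXCL1, CXCL5, CXCL6 and CXCL8 were among them at both doses, with adjusted p at 10 µM of 0.000122 for CXCL1, 4.48e-05 for CXCL5, 0.000177 for CXCL6 and 7.98e-06 for CXCL8. LIF, a cytokine of the interleukin-6 family, was called at 10 µM only, at −1.81 with an adjusted p of 3.09e-05, its signals being 1492 and 1615 in vehicle, 1060 and 1139 at 0.5 µM and 445 and 439 at 10 µM. ICAM1, the leukocyte adhesion molecule, was called at 0.5 µM, at −1.01 with an adjusted p of 0.061. Without the trend the same PC3 arrays gave 0 calls at 0.5 µM, with 17 members at an unadjusted p under 0.05.

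Interleukin-6 (IL6) had signals of 2028 and 2442 in vehicle, 514 and 540 at 0.5 µM and 372 and 454 at 10 µM. All treated samples lay below vehicle and the 10 µM samples below those at 0.5 µM. The log2 change of IL6 was −2.08 ± 0.62 at the lower dose (adjusted p = 0.0955) and −2.44 ± 0.62 at the higher (adjusted p = 0.0216). At 0.5 µM it was lost with the replicate block (adjusted p = 0.139) and without any 1 of the 4 arrays, with adjusted p from 0.218 to 0.308, and at 10 µM without vehicle replicate 2 (adjusted p = 0.114) or 10 µM replicate 1 (adjusted p = 0.104). Interleukin-1β (IL1B), an upstream activator of NF-κB, had 1331 and 1329 in vehicle, 336 and 309 at 0.5 µM and 240 and 156 at 10 µM. Its change was −2.05 ± 0.46 at 0.5 µM (adjusted p = 0.0306) and −2.78 ± 0.46 at 10 µM (adjusted p = 0.00163), the first lost without any 1 array at adjusted p from 0.115 to 0.124.

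IL32, a cytokine of lymphoid and epithelial cells, went from 147 and 203 in vehicle to 41.7 and 33.2 at 0.5 µM and 16.2 and 6.25 at 10 µM. The treated samples were all under the floor, so that IL32 was at least 1.75-fold lower at both doses, with adjusted p of 0.0165 and 7.12e-05. The call at 0.5 µM was lost without vehicle replicate 2, at an adjusted p of 0.112. CSF1, the macrophage growth factor, had 373 and 296 in vehicle, 179 and 154 at 0.5 µM and 141 and 96.8 at 10 µM. It was −1.51 ± 0.40 at 10 µM (adjusted p = 0.0254), without overlap, and passed neither at 0.5 µM nor at 10 µM without vehicle replicate 1 (adjusted p = 0.149) or 10 µM replicate 2 (adjusted p = 0.16), nor for the mean over its probe sets, which lay under the floor.

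Not every secreted factor of PC3 was lower. Interleukin-18 (IL18), which is stored as a precursor, had 2073 and 1967 in vehicle and 2174 and 2386 at 10 µM, a log2 change of 0.17 ± 1.17. PTX3, a pattern recognition protein, had 1870 and 2077 in vehicle and 2502 and 2916 at 10 µM. IL11 stayed between 160 and 288 on all 6 arrays by its representative. Its other probe set went from a mean of 34.2 in vehicle to 207.5 at 0.5 µM and 121.2 at 10 µM, without passing (limma adjusted p = 0.288 and 0.4). CXCL16 was lower by less than 2-fold, at −0.92 ± 0.15 (adjusted p = 0.00118) at 10 µM. For lymphotoxin β (LTB) 2 probe sets disagreed in size, at 10 µM with −0.62 on the representative and −1.68 on the other. The representative did not pass. The other went from a mean of 491 in vehicle to 189 at 0.5 µM and 156 at 10 µM and passed at both (limma adjusted p = 0.0752 and 0.0143).

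**Figure D3:**
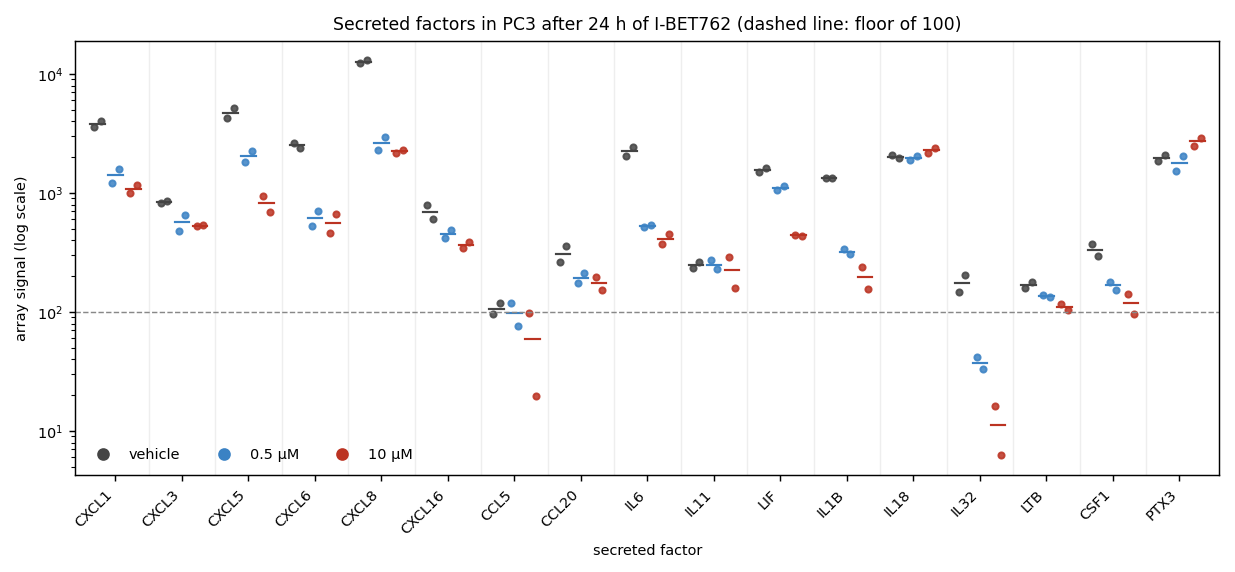
Signals of 17 secreted members in PC3 (y axis, log scale) on the 2 arrays of each group (dots), with the group mean (bar), in vehicle, 0.5 µM and 10 µM I-BET762, and the floor of 100 dashed. CXCL8 goes from 12293 and 12983 to 2163 and 2301, whereas IL18 stays between 1911 and 2386.

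Among subunits in PC3, NFKB1 fell and the others did not pass. NFKB1, which encodes p105 and its product p50, had 1180 and 1294 in vehicle, 728 and 815 at 0.5 µM and 584 and 542 at 10 µM. The 3 groups were separate, and the change was −0.68 ± 0.15 at 0.5 µM, under 2-fold, and −1.14 ± 0.15 at 10 µM (adjusted p = 0.000331). RELA, the main transactivating subunit, had 3420 and 3743, then 3912 and 3232, then 3365 and 2989, changes of −0.01 ± 0.13 and −0.17 ± 0.13 that did not pass. The RELA arrays at 0.5 µM overlapped vehicle and those at 10 µM lay just below it. REL (c-Rel) had 441 and 392, then 409 and 463, then 499 and 512, changes of 0.07 ± 0.25 and 0.28 ± 0.25 that did not pass. RELB and NFKB2 belong to the non-canonical branch. RELB had 376 and 315, then 219 and 231, then 245 and 190, and was −0.67 ± 0.23 at 10 µM. NFKB2 had 435 and 447, then 339 and 382, then 352 and 308, and was −0.42 ± 0.34. Vehicle lay above both doses for these 2 genes, by less than 2-fold.

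The ubiquitin-editing brake TNFAIP3 and its partner TNIP1 (ABIN-1) fell with the secreted factors. TNFAIP3 had 2528 and 2255 in vehicle, 739 and 761 at 0.5 µM and 521 and 576 at 10 µM, changes of −1.67 ± 0.24 (adjusted p = 0.00216) and −2.12 ± 0.24 (adjusted p = 9.97e-05). TNIP1 had 4502 and 4613, then 2014 and 2242, then 1702 and 1597, changes of −1.10 ± 0.10 (adjusted p = 9.08e-05) and −1.47 ± 0.10 (adjusted p = 2.04e-06). The doses stood below vehicle without overlap for both genes. Averaged over its probe sets, TNIP1 was at −0.55 and −0.83 and did not pass.

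NFKBIA, whose promoter carries the same 9 letters, had 5952 and 5422 in vehicle, 6029 and 4756 at 0.5 µM and 5797 and 4820 at 10 µM, overlapping, with a change of −0.10 ± 0.17. NFKBIE did not pass either, at −0.04 ± 0.17. NFKBIZ, the nuclear IκB that activates a subset of κB genes, was higher at 0.64 ± 0.13 (adjusted p = 0.0055) but under 2-fold. BIRC2, the ubiquitin ligase cIAP1, had −0.06 ± 0.13.

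**Figure D4:**
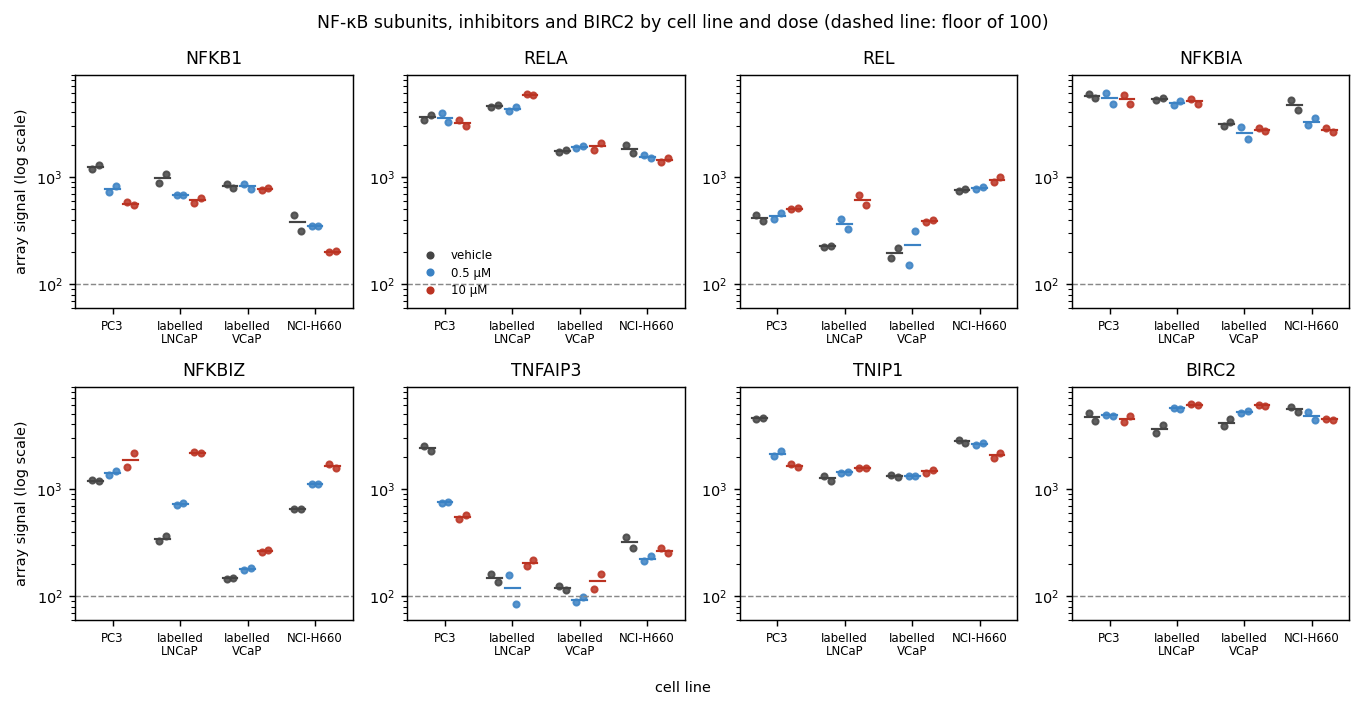
Signals (y axis, log scale) of 8 intracellular members in each cell line (x axis) and dose, 2 arrays a group (dots) with the mean (bar) and the floor of 100 dashed. TNFAIP3 and TNIP1 are lower with drug in PC3, and NFKBIZ is higher with drug on arrays labelled LNCaP and in NCI-H660.

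On arrays labelled LNCaP, CCL2 fell to the background and NFKBIZ rose at both doses. At 0.5 µM 1 member rose, against 2.3% of all genes, and 1 fell, against 2.71%. At 10 µM 2 rose, against 6.31%, and 1 fell, against 6.74%, so the share of members that passed did not stand above that of all genes. CCL2 had 522 and 591 in vehicle, 6.13 and 4.90 at 0.5 µM and 5.47 and 4.71 at 10 µM. All 4 treated samples were under the floor, and CCL2 was at least 5.57-fold lower at both doses, with adjusted p of 6.68e-05 and 1.57e-05. In the other lines CCL2 was under the floor throughout. The representative of ICAM1 did not pass, at −1.59 (adjusted p = 0.133) at 10 µM, but passed with these arrays fitted alone with the trend (adjusted p = 0.0497). A further ICAM1 probe set went from a mean of 148 to 43.7 and 45.5 and passed at both doses (adjusted p = 0.00169 and 0.000731). The remaining one stayed under the floor, at −0.05 at 10 µM. Fitted alone with the trend, these arrays also called CXCL1 lower at 0.5 µM, at −1.42 ± 0.37 (adjusted p = 0.0353). Its mean went from 165 in vehicle to 59.9, under the floor. At 10 µM CXCL1 had a mean of 117 and was not called in that fit (−0.44, adjusted p = 0.482). In the model of all groups it passed at neither dose (adjusted p = 0.274 and 0.765).

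NFKBIZ had signals of 324 and 363 in vehicle, 715 and 731 at 0.5 µM and 2215 and 2145 at 10 µM on arrays labelled LNCaP. The 3 groups were separate and in order of dose. The log2 change was 1.07 ± 0.13 (adjusted p = 0.000111) and 2.67 ± 0.13 (adjusted p = 1.08e-08). The change at 0.5 µM was 0.89 after median centring, and 0.99 without vehicle replicate 1, both under 2-fold, and 1.05 with an adjusted p of 0.126 for the mean over probe sets. REL had 224 and 226 in vehicle, 401 and 326 at 0.5 µM and 677 and 550 at 10 µM, changes of 0.68 ± 0.25 and 1.44 ± 0.25, of which the latter passed (adjusted p = 0.000686). Averaged over its probe sets, REL was at 0.99 at 10 µM and no longer reached 2-fold.

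The remaining subunits and brakes on these arrays differed from vehicle by less than 2-fold. NFKBIE was at 0.82 ± 0.17 (adjusted p = 0.00262) and BIRC2 by 0.75 ± 0.13 (adjusted p = 0.000873) at 10 µM. NFKB1 had 883 and 1057 in vehicle, 684 and 673 at 0.5 µM and 571 and 636 at 10 µM, and was −0.68 ± 0.15 at 10 µM. RELA had 4496 and 4664, then 4118 and 4489, then 5863 and 5852, and was 0.36 ± 0.13 at 10 µM. The 10 µM arrays stood apart from vehicle for both, below for NFKB1 and above for RELA. NFKB2 had 218 and 192, then 113 and 92.6, then 194 and 118. It was −1.0 ± 0.34 at 0.5 µM (adjusted p = 0.0763), a fold of 1.99 just short of the minimum, and passed after quantile normalization and after median centring. RELB had 243 and 230, then 223 and 236, then 312 and 209. NFKBIA had 5212 and 5492, then 4653 and 5050, then 5379 and 4814, a change of −0.07 ± 0.17. TNFAIP3 had 160 and 135, then 156 and 83.9, then 191 and 219, and was 0.48 ± 0.24 at 10 µM. None of these passed in the 12-group model, and the representative of TNFAIP3, which fell in PC3, lay above vehicle here at 10 µM. The other TNFAIP3 probe set went the other way, from a mean of 100.5 to 86.4 (−0.28), and did not pass.

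On arrays labelled VCaP 0 members rose or fell at 0.5 µM by limma, with 5 at an unadjusted p under 0.05, where 0.748% and 2.5% of all genes rose and fell. At 10 µM 0 rose, against 2.95%, and 2 fell, against 5% (both secreted). CXCL16, whose membrane-bound form is shed to attract CXCR6 cells, had 977 and 1017 in vehicle, 613 and 579 at 0.5 µM and 370 and 369 at 10 µM. The groups were separate, and the change at 10 µM was −1.43 ± 0.15 (adjusted p = 1.46e-05). LIF had 156 and 122 in vehicle and 27.1 and 35.5 at 10 µM, at least 1.39-fold lower with an adjusted p of 0.0705, a call lost without any 1 of the 4 arrays (adjusted p from 0.155 to 0.254). NFKBIZ was higher by less than 2-fold, with 146 and 149 in vehicle and 259 and 268 at 10 µM, at 0.84 ± 0.13 (adjusted p = 0.000408).

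The subunits on arrays labelled VCaP stayed closer to vehicle, none passing. NFKB1 had 856 and 790, then 864 and 777, then 751 and 789, and RELA 1721 and 1797, then 1841 and 1923, then 1775 and 2068. Both overlapped or nearly met between vehicle and 10 µM, with changes of −0.10 ± 0.15 and 0.12 ± 0.13. REL had 176 and 219, then 151 and 313, then 378 and 396, and was 0.98 ± 0.25 at 10 µM (adjusted p = 0.0146), short of 2-fold. NFKB2 had 281 and 243 in vehicle and 293 and 222 at 10 µM, and RELB stayed under the floor, at 83.1 at most. NFKBIA had 2979 and 3258, then 2910 and 2246, then 2859 and 2668, and TNFAIP3 124 and 115, then 88.1 and 97.8, then 116 and 162. NFKBIA at 10 µM lay below vehicle and TNFAIP3 overlapped it.

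In NCI-H660 LIF, CXCL16 and TNFAIP2 fell and NFKBIZ rose at 10 µM. At 0.5 µM 1 member rose, against 0.344% of all genes, and 1 fell, against 0.576%. At 10 µM 1 rose, against 2%, and 3 fell, against 3.68%. LIF had 152 and 102 in vehicle, 60.9 and 25 at 0.5 µM and 9.28 and 5.45 at 10 µM, at least 1.27-fold lower at 10 µM (adjusted p = 0.00247). CXCL16 had 365 and 353 in vehicle and 179 and 175 at 10 µM, a change of −1.02 ± 0.15 (adjusted p = 0.000425) that was −0.84 after median centring and so under 2-fold, and it also missed 2-fold without vehicle replicate 1. CXCL16 was lower in all 4 lines at both doses with an adjusted p under 0.1 in each, from −0.54 on arrays labelled LNCaP at 0.5 µM to −1.43 on arrays labelled VCaP at 10 µM.

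TNFAIP2, a TNF-induced gene of endothelial and epithelial cells, had 494 and 450 in vehicle, 210 and 180 at 0.5 µM and 119 and 144 at 10 µM in NCI-H660. Its change was −1.28 ± 0.34 at 0.5 µM (adjusted p = 0.0846) and −1.85 ± 0.34 at 10 µM (adjusted p = 0.00286), the first lost with the replicate block (adjusted p = 0.103) and without any 1 array (adjusted p from 0.212 to 0.349). NFKBIZ had 644 and 656, then 1104 and 1106, then 1707 and 1573, a change of 1.33 ± 0.13 (adjusted p = 1.87e-05) at 10 µM. NFKB2 was the member counted as higher at 0.5 µM, from 81.6 and 30.9 to 131 and 125. Both vehicle arrays were under the floor, so that NFKB2 was at least 1.28-fold higher, with an adjusted p of 0.065. Its call was lost for the mean over probe sets (adjusted p = 0.695) and without vehicle replicate 2 or either 0.5 µM array.

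Other members of NCI-H660 were given by their levels. PTX3 had 886 and 1101 in vehicle, 469 and 465 at 0.5 µM and 236 and 263 at 10 µM, 3 separate groups. Its change at 10 µM was −1.99 ± 1.36 with an adjusted p of 0.429, and it passed when NCI-H660 was fitted alone with the trend (adjusted p = 2.18e-05). CX3CL1, which had 306 and 219 in vehicle and 104 and 142 at 10 µM, was −1.10 ± 0.45 (adjusted p = 0.141) and passed in the same fit (adjusted p = 0.0122). NFKB1 had 441 and 313, then 349 and 347, then 199 and 203, and was −0.89 ± 0.15 (adjusted p = 0.00156) at 10 µM, under 2-fold. RELA had 1994 and 1679, then 1587 and 1491, then 1371 and 1509, and REL 744 and 773, then 771 and 808, then 896 and 993. At 10 µM RELA lay below vehicle and REL above it, neither passing. RELB had 115 and 86.9 in vehicle and 82.1 and 87.3 at 10 µM. NFKBIA had 5193 and 4164, then 3053 and 3510, then 2837 and 2613, below vehicle without overlap at −0.77 ± 0.17 (adjusted p = 0.00774). TNFAIP3 had 353 and 281, then 212 and 236, then 279 and 253, a change of −0.25 ± 0.24 at 10 µM that did not pass.

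**Figure D5:**
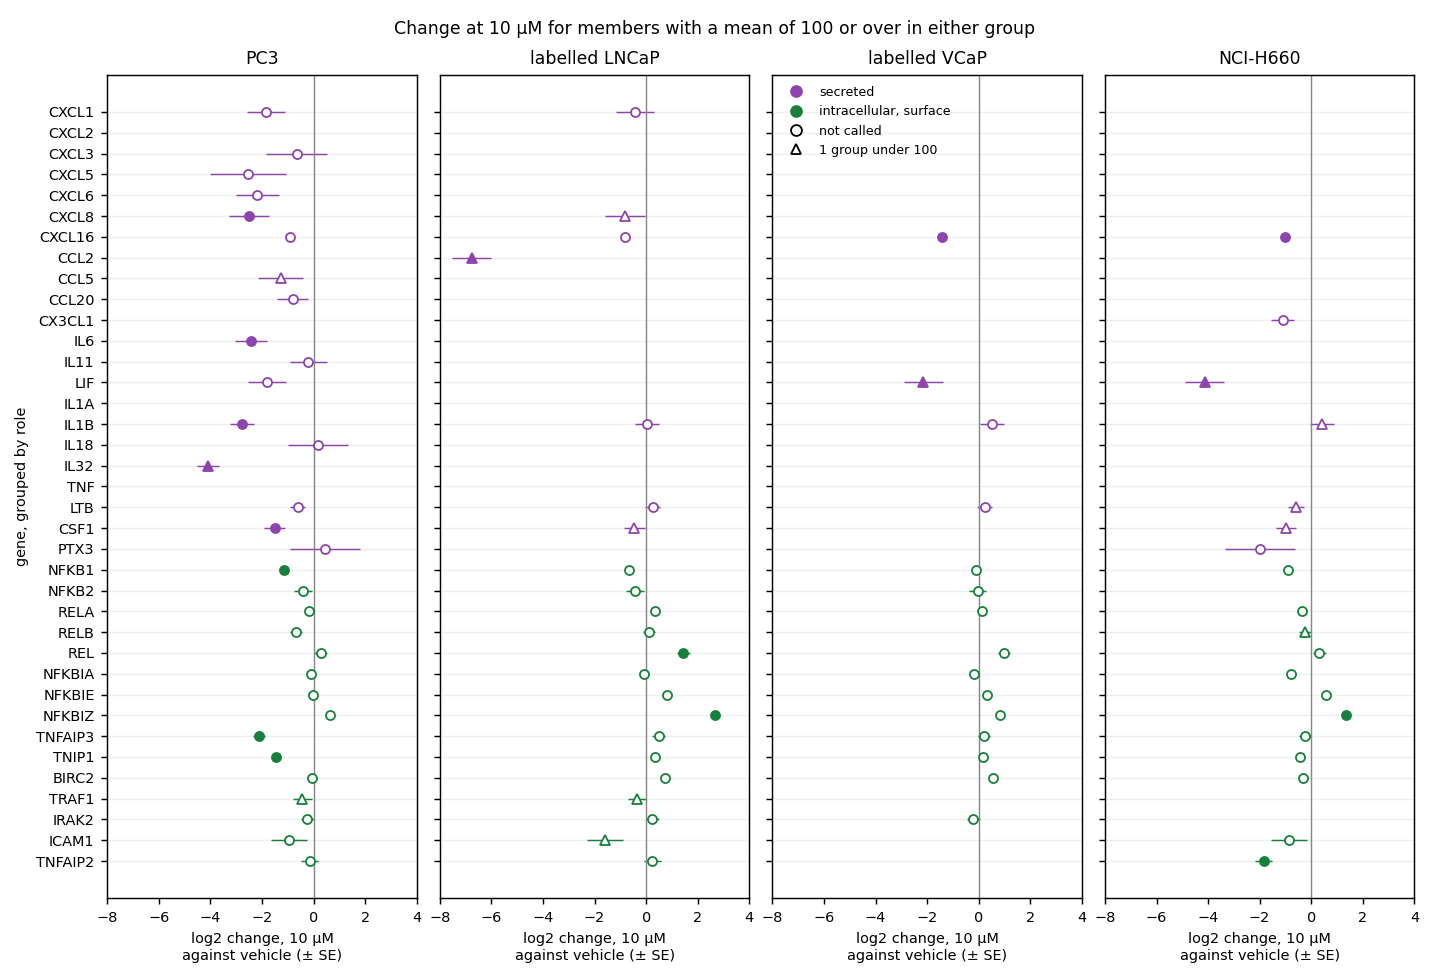
Log2 change at 10 µM against vehicle with its SE from limma (x axis) for each member at the floor (y axis), in each line. Filled symbols passed the test, triangles have 1 group under 100, purple marks secreted and green intracellular or surface members. TNFAIP3 and TNIP1 lie at −2.12 and −1.47 in PC3, and NFKBIZ at 2.67 on arrays labelled LNCaP.

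Between 0.5 µM and 10 µM few members moved further. On arrays labelled LNCaP 1 member, NFKBIZ, passed in either direction, at 1.59 ± 0.13, against 2.03% of all genes. For arrays labelled VCaP 0 passed, against 1.06%, with 6 at an unadjusted p under 0.05. For PC3 0 passed, against 0.162%, with 4 at such a p, and for NCI-H660 0 passed, against 0.668%, with 6. NFKBIZ was also higher, by less than 2-fold, at 10 µM than at 0.5 µM on arrays labelled VCaP (0.56 ± 0.13) and in NCI-H660 (0.57 ± 0.13), with adjusted p of 0.0356 and 0.0395. NFKB1 was lower at 10 µM than at 0.5 µM in NCI-H660, by −0.79 ± 0.15, under 2-fold.

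Differences in response between lines were found for several members, at a share near that of all genes. Of 161 differences between lines in members with all 4 means at the floor or over, 36 had an adjusted p under 0.1, or 22.4%, against 17.4% over all genes by the same rule. The same members, lines and vehicle samples recur among these differences, so that they are not independent. At 10 µM the change of TNFAIP3 in PC3 was below that in each other line, the log2 difference being −2.60 against arrays labelled LNCaP (adjusted p = 0.000338), −2.32 against arrays labelled VCaP (adjusted p = 0.00128) and −1.88 against NCI-H660 (adjusted p = 0.00891). TNIP1 differed likewise, by −1.79, −1.62 and −1.02. The change of NFKBIZ on arrays labelled LNCaP was above that in each other line, by 1.82 over arrays labelled VCaP (adjusted p = 5.79e-05) and 1.33 over NCI-H660 (adjusted p = 0.00029), and the change in PC3 minus that on arrays labelled LNCaP was −2.03 (adjusted p = 1.75e-05).

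Other genes of the pathway were taken from lists of receptors, kinases, inhibitors and targets. Their counts at 10 µM stand against shares of all genes that fell of 2.07% in PC3, 6.74% on arrays labelled LNCaP, 5% on arrays labelled VCaP and 3.68% in NCI-H660, and that rose of 2.23%, 6.31%, 2.95% and 2%. Of 19 measured further NF-κB targets in PC3 5 fell and 0 rose at 10 µM. Among them PTGS2 (cyclooxygenase-2) went from 4008 to 105 and PLAU (urokinase) from 11830 to 3018. Of 19 kinases and adaptors upstream of NF-κB 0 passed in PC3 at 10 µM by limma. In NCI-H660 3 of these fell and 1 rose, with MYD88, the adaptor of Toll-like and interleukin-1 receptors, going from 1595 to 408. On arrays labelled LNCaP 6 of 19 further targets fell and 0 rose at 10 µM, CXCL10 and CXCL11, the interferon-induced chemokines, going from 1286 to 60.6 and from 988 to 27. IRAK1, a kinase of interleukin-1 receptor signalling, fell there from 8851 to 1971. Of 12 further inhibitors 3 rose and 0 fell, with SOCS1, a brake of cytokine signalling, going from 35.7 to 394. Targets also fell in NCI-H660, 4 of the 19, and on arrays labelled VCaP, 2 of the 19, with 0 rising in either. Further inhibitors rose in 2 of 12 cases in NCI-H660 and in 1 of 12 in PC3 and on arrays labelled VCaP, and 0 of them fell in any line at 10 µM by limma. Of 19 kinases and adaptors 2 rose and 2 fell on arrays labelled VCaP, and 1 fell on arrays labelled LNCaP. Of 26 measured receptors 1 rose and 1 fell in PC3 and in NCI-H660, 1 rose and 3 fell on arrays labelled LNCaP, and 2 rose on arrays labelled VCaP.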

How the data were processed

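RNA of 4 prostate cancer lines was hybridised to 24 arrays, 2 for each of 12 groups of line and dose. The authors deposited a table of array intensity values on a linear scale, computed with MAS5 per the labels and scaled so that the trimmed mean of each array is 500. No values were recomputed from scans. Of 54675 probe sets, 62 controls were left out, 41091 had 1 gene symbol, 1801 several and 11721 none. The representative of a gene was its single-symbol probe set with the highest mean signal, leaving out probe sets marked as cross-hybridising where another existed. Signals were taken as log2, modelled over all 12 groups together with limma 3.58.1 and R 4.3.3 (12 residual degrees of freedom, 1.29 prior), and adjusted by Benjamini-Hochberg over 54613 probe sets. A call needed an adjusted p under 0.1, a change over 2-fold and a mean of 100 or over, in place of the authors' detection calls, which are not used here. The precision of these values is set by 2 arrays a group. Members and gene lists were chosen with earlier results of these data known. All members could be named. Values on every array were given for members called against vehicle, the 5 subunits, NFKBIA and TNFAIP3, and of each pathway list up to 3 called genes a contrast. The script was checked on simulated data. Alternatives were no floor, a floor of 200, no fold minimum, quantile normalization, median centring, an intensity trend, the mean over probe sets, the replicate block, each line fitted alone, each line fitted alone with an intensity trend (added after the data were seen), and each array left out. Promoter sequences are RefSeq's, GRCh38.p14, and coordinates are 1-based. Whether replicates shared a day was not given in the sources used here, so p-values measure the spread between these samples.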

Additional observations from a re-analysis of the deposited data

Results flagged for a closer look

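Of 161 differences in response between lines tested, of members with a mean of 100 or over in all 4 groups, 36 had an adjusted p under 0.1 in limma's interaction test, over all probe sets, against 17.4% of such differences over all genes. The same members and vehicle samples recur among these differences, so that they are not independent. Values are the log2 change in the first line minus that in the second, and no explanation was tested.

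For CXCL16 at 10 µM the difference was 0.63 for arrays labelled LNCaP minus arrays labelled VCaP. For IL1B at 0.5 µM the difference was −2.56 for PC3 minus arrays labelled LNCaP. For IL1B at 10 µM the difference was −2.82 for PC3 minus arrays labelled LNCaP and −3.29 for PC3 minus arrays labelled VCaP. For NFKB1 at 10 µM the difference was −1.04 for PC3 minus arrays labelled VCaP and 0.79 for arrays labelled VCaP minus NCI-H660. For RELA at 10 µM the difference was 0.70 for arrays labelled LNCaP minus NCI-H660. For REL at 10 µM the difference was 1.12 for arrays labelled LNCaP minus NCI-H660 and −1.16 for PC3 minus arrays labelled LNCaP. For NFKBIA at 10 µM the difference was 0.70 for arrays labelled LNCaP minus NCI-H660. For NFKBIE at 10 µM the difference was −0.85 for PC3 minus arrays labelled LNCaP. For NFKBIZ at 0.5 µM the difference was 0.79 for arrays labelled LNCaP minus arrays labelled VCaP and −0.83 for PC3 minus arrays labelled LNCaP. For NFKBIZ at 10 µM the difference was 1.33 for arrays labelled LNCaP minus NCI-H660, 1.82 for arrays labelled LNCaP minus arrays labelled VCaP, −2.03 for PC3 minus arrays labelled LNCaP and −0.69 for PC3 minus NCI-H660. For TNFAIP3 at 0.5 µM the difference was −1.31 for PC3 minus arrays labelled LNCaP. For TNFAIP3 at 10 µM the difference was −2.60 for PC3 minus arrays labelled LNCaP, −1.88 for PC3 minus NCI-H660 and −2.32 for PC3 minus arrays labelled VCaP. For TNIP1 at 0.5 µM the difference was −1.29 for PC3 minus arrays labelled LNCaP, −1.01 for PC3 minus NCI-H660 and −1.11 for PC3 minus arrays labelled VCaP. For TNIP1 at 10 µM the difference was 0.77 for arrays labelled LNCaP minus NCI-H660, −1.79 for PC3 minus arrays labelled LNCaP, −1.02 for PC3 minus NCI-H660, −1.62 for PC3 minus arrays labelled VCaP and 0.60 for arrays labelled VCaP minus NCI-H660. For BIRC2 at 0.5 µM the difference was 0.84 for arrays labelled LNCaP minus NCI-H660. For BIRC2 at 10 µM the difference was 1.07 for arrays labelled LNCaP minus NCI-H660, −0.81 for PC3 minus arrays labelled LNCaP, −0.60 for PC3 minus arrays labelled VCaP and 0.86 for arrays labelled VCaP minus NCI-H660. For TNFAIP2 at 10 µM the difference was 2.09 for arrays labelled LNCaP minus NCI-H660 and 1.69 for PC3 minus NCI-H660.

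The direction held in all 36 under quantile normalization, median centring, an intensity trend and the replicate block, and in 35 for the mean over probe sets, where TNIP1 at 10 µM for arrays labelled VCaP minus NCI-H660 was −0.06 (adjusted p = 0.967). Those with an adjusted p under 0.1 numbered 35 under quantile normalization, 22 after median centring, 36 with a trend, 31 with the replicate block and 21 for the mean over probe sets. With each array left out they numbered 28 to 35.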

How the results depend on the processing

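Precision is limited by 2 arrays a group, and values near or under a signal of 100 carry little information. Median centring shifted the median change of all genes by −0.18 and −0.13 on arrays labelled LNCaP at 0.5 µM and 10 µM, at 10 µM by −0.13 on arrays labelled VCaP and 0.18 in NCI-H660, and by less elsewhere. No change against vehicle reversed, and 1 difference between lines did, TNIP1 at 10 µM for arrays labelled VCaP minus NCI-H660, at −0.06 for the mean over probe sets. The cause of the movements below was not tested.

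Deviations of arrays with the same replicate number correlated between −0.09 and 0.17, the highest between the treated groups of PC3. Whether same-numbered samples were handled together cannot be told from these values. With the replicate number as a block the members called in NCI-H660 at 0.5 µM went from 2 to 1, other counts staying within 1.5 times. The block ended the calls of IL6 in PC3 at 0.5 µM, CXCL8 in PC3 at 10 µM and TNFAIP2 in NCI-H660 at 0.5 µM, and LIF passed with it in PC3 at 10 µM (adjusted p = 0.036).

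Without a fold minimum the counts were 8 and 9 on arrays labelled LNCaP at 0.5 µM and 10 µM, 1 and 5 on arrays labelled VCaP, 4 and 8 in NCI-H660, and, between the doses, 5 on arrays labelled LNCaP, 2 on arrays labelled VCaP and 2 in NCI-H660. The shares of all genes under that setting were 20.3% and 32.4% on arrays labelled LNCaP, 14.6% and 24.9% on arrays labelled VCaP, 4.71% and 20.9% in NCI-H660, and 11.7%, 5.8% and 4.41% between the doses. With no floor there were 7 in NCI-H660 at 10 µM and 1 each between the doses in PC3 and NCI-H660. A floor of 200 left 1 on arrays labelled VCaP at 10 µM and 1 in NCI-H660 at 0.5 µM. Quantile normalization and median centring each gave 1 (TNFAIP2) on arrays labelled VCaP at 0.5 µM, and median centring 2 between the doses on arrays labelled LNCaP. At 0.5 µM each line fitted alone gave 0 in PC3 and likewise 0 in NCI-H660, with 17 and 11 members at an unadjusted p under 0.05, and with an intensity trend 9 in PC3 at 0.5 µM and 2 (CXCL5 and LIF) between its doses.

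With each array left out, counts ran from 2 to 4 in PC3 and 0 to 1 in NCI-H660 at 0.5 µM, 1 to 3 on arrays labelled VCaP at 10 µM, and between the doses 1 to 2 on arrays labelled LNCaP and 0 to 2 on arrays labelled VCaP. In PC3 at 0.5 µM there were 2 without vehicle replicate 2 and 3 without vehicle replicate 1 or 0.5 µM replicate 1. In NCI-H660 at 0.5 µM there were 1 without vehicle replicate 1 and 0 without vehicle replicate 2 or either 0.5 µM array, with 7 to 11 at an unadjusted p under 0.05. On arrays labelled VCaP there was 1 without vehicle replicate 1 or 10 µM replicate 2, and 2 between the doses without 0.5 µM replicate 2. On arrays labelled LNCaP there were 2 between the doses without 0.5 µM replicate 1 or 10 µM replicate 2. Of the values of single members under an alternative, 426 kept their direction and side of the threshold, 60 lost the call and 18 gained it. The 426 include no floor and no fold minimum, which could end no call and left all 36 values of each the same. They also include members that were not called in the main model and stayed so.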
